A study of Mus musculus with 40 samples.

Results

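Aged Ttpa-/- mice on the α-tocopherol-deficient diet were compared in the cerebral cortex with wild-type mice of the same age that ate the normal diet. The 8 arrays of this comparison were chosen by their labels, from 40 arrays in the series, and each array held the RNA of 1 of 4 mice per group. Both groups were 29 months old. The methods name the C57Bl/6 strain for mice of another experiment and no strain for these groups. The Ttpa-/- mice lack the gene in the whole body, not in the brain alone, and the wild-type diet held 36 mg of α-tocopherol/kg, so genotype and diet differed together in this comparison. Beside them were set 4 wild-type mice of the same age fed the deficient diet and 4 Ttpa-/- mice of that age whose supplemented diet held 600 mg of α-tocopherol/kg, and the same comparison in the cerebellum was used to test differences between regions.

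α-Tocopherol transfer protein, the product of Ttpa, loads α-tocopherol from liver cells onto lipoproteins, and without it the plasma and the brain become poor in vitamin E. α-Tocopherol sits in membranes and stops chains of lipid peroxidation. The brain is rich in polyunsaturated lipids, which such chains attack, and lack of vitamin E is known to harm its neurons.

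All values were log2 signals relative to the 75th percentile of the array, so that a difference of 1 is a doubling of the signal. A probe was called higher or lower when limma gave an adjusted p under 0.05 with more than 1.5-fold between the group means. The Ttpa-/- deficient arrays shared one slide and the wild-type normal arrays another, so an effect of the slide cannot be told apart from one of the condition. The 75th percentile of the signal was 480.6 to 548.9 on the 8 arrays, 51.94% to 56.66% of probes stood well above background, and arrays of one group had a correlation of 0.987 to 0.996 across probes. The cortical neuron genes Tbr1, Fezf2 and Emx1 were above background on 4 of 4 arrays in both groups, and Gabra6 and Cbln3, genes of cerebellar granule cells, on 0 of 4. The Ttpa probes could not check the genotype in the cortex. Neither probe was well above background on any of the 8 arrays, so no fold change is given. The log2 signal of the brighter Ttpa probe was -6.78, -7.03, -7.00 and -6.73 in Ttpa-/- deficient and -4.54, -5.25, -5.31 and -4.71 in wild-type cortex, so the groups did not overlap (exact two-sided permutation test, p = 0.0286, the smallest possible with 4 against 4).

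Among genes with a symbol, each represented by its brightest probe, 319 of 14950 tested genes were called higher (2.13%) and 225 lower (1.51%) in Ttpa-/- deficient cortex, with a median difference of -0.06. The counts of list members given below are to be read against these shares. Over all 28913 tested probes, 909 were higher (3.14%) and 464 lower (1.6%), and scaling by the median in place of the 75th percentile gave 1054 and 221. The size of the difference at the called probes varied between the Ttpa-/- deficient arrays. These probes were called on the same arrays, and each mouse had its own array, so mouse and array cannot be told apart. Relative to the wild-type mean, the 909 higher probes had a median of 0.99 in replicate 1, 0.79 in replicate 2, 0.77 in replicate 3 and 0.47 in replicate 4. Of these probes, 710 were highest in replicate 1 and 713 lowest in replicate 4 among the Ttpa-/- deficient mice. Without replicate 1 the counts fell to 558 higher and 304 lower, and without replicate 4 they rose to 1283 and 678. The difference also went with the base composition of the probe. The median difference rose from -0.13 for probes with 9 to 20 G and C bases of 60 to 0.33 for probes with 37 to 55, and this property is given below beside the groups whose calls depend on it.

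Genes of reactive microglia were lower in Ttpa-/- deficient cortex. Disease-associated microglia are the state in which microglia switch on genes for lipid uptake and lysosomes around damaged myelin and plaques. Of the 25 genes of this state, all tested, 9 were lower and 0 higher in Ttpa-/- deficient cortex, against 1.51% and 2.13% of all genes, and the median difference of the list was -0.42, with 24 of 25 members below 0. The lower genes were Cst7 (cystatin F, an inhibitor of lysosomal proteases), Clec7a (the receptor dectin-1), Itgax (the integrin CD11c), the chemokines Ccl3 and Ccl4, Lyz2 (lysozyme), Cd52, Cd9 and Trem2 (a lipid-sensing receptor). The exception in sign was Apoe, the main lipoprotein of the brain, with a difference of 0.17 (adjusted p = 0.21 by limma). Genes named in the text without a call, such as Apoe, were chosen after their values were seen. In bulk cortex, fewer cells of a type and less RNA per cell cannot be told apart.

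Cst7 had log2 signals of -2.15, -1.48, -1.33 and -1.55 in Ttpa-/- deficient cortex and of -0.40, 0.60, 0.66 and -1.65 in wild-type cortex, a difference of -1.43 (standard error 0.34, adjusted p = 0.00344 by limma). Here 3 wild-type mice lay above every Ttpa-/- deficient mouse, and wild-type replicate 4 lay within the range of the Ttpa-/- group. Clec7a showed the same order, with -1.58, -0.82, -0.66 and -0.66 against 0.14, 0.82, 0.99 and -1.37, and a difference of -1.08 (standard error 0.32, adjusted p = 0.017 by limma). For Trem2 the groups did not overlap, with 2.28, 2.37, 2.39 and 2.37 against 3.02, 3.18, 3.24 and 2.62, and a difference of -0.66 (standard error 0.16, adjusted p = 0.00543 by limma). Wild-type replicate 4 was again the lowest wild-type mouse. The mean log2 signal of the 25 genes was 1.30, 1.63, 1.72 and 1.70 in Ttpa-/- deficient mice and 2.08, 2.33, 2.38 and 1.56 in wild-type mice.

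The list had a negative median in the other comparisons too, those in the cortex with shared arrays. The median of the 25 genes was -0.34 against wild-type mice on the deficient diet, -0.32 against Ttpa-/- mice on the supplemented diet, and -0.49 in the cerebellum for the same comparison as in the cortex. Without the deficient Ttpa-/- mice it was -0.16 for the deficient diet in wild-type mice and -0.14 for supplemented Ttpa-/- against wild-type normal mice. Cst7 was also called lower against wild-type mice on the deficient diet (-1.02, adjusted p = 0.0425) and in the cerebellum (-1.10, adjusted p = 0.0269, both by limma), while Clec7a and Trem2 were called in neither. General microglial genes had 1 lower of 21 tested, which was Trem2, and a median of -0.32, with 18 members below 0. Their mean log2 signal was 2.03 to 2.10 in Ttpa-/- deficient mice and 2.07 to 2.48 in wild-type mice, so the ranges met at wild-type replicate 4. The count of 9 lower genes was 4 without Ttpa-/- deficient replicate 1, without wild-type replicate 2 or without wild-type replicate 3, 3 with median scaling and 1 in a fit of the 8 arrays alone.

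A few myelin genes were called lower, and the wild-type mice were spread widely. Oligodendrocytes wrap axons in myelin, of which Mbp is a main protein. All 20 genes of mature oligodendrocytes and myelin were tested and all 20 had negative differences, with a median of -0.55, and 3 were called lower and 0 higher, against 1.51% and 2.13% of all genes. These were Opalin, a membrane protein of mature oligodendrocytes, Mal, a myelin proteolipid, and Trf, the iron carrier transferrin, which oligodendrocytes make in the brain. The second Trf probe differed by -0.49 without a call (adjusted p = 0.153 by limma). The Trf call was kept in 13 of 24 alternatives and lost with median scaling and quantile normalization. Mal had log2 signals of 4.14, 4.59, 4.69 and 4.86 in Ttpa-/- deficient cortex and of 5.30, 5.65, 5.54 and 4.99 in wild-type cortex, with no overlap (difference -0.80, standard error 0.19, adjusted p = 0.00383 by limma). Opalin had -2.06, -1.44, -1.07 and -1.38 against -0.27, 0.19, 0.13 and -1.37 (difference -1.16, standard error 0.39, adjusted p = 0.034 by limma). Here wild-type replicate 4 lay inside the Ttpa-/- range. Mbp differed by -0.34 and was not called (adjusted p = 0.236 by limma). The probe that stands for Ermn (-1.10, adjusted p = 0.0579) carries a run of GAA described below, and the other Ermn probe differed by -0.29.

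The mean log2 signal of the myelin list was 2.07, 2.39, 2.58 and 2.46 in Ttpa-/- deficient mice and 2.91, 3.24, 3.30 and 2.22 in wild-type mice. It was therefore lowest in the same wild-type mouse as the microglial list. Without wild-type replicate 4, 12 of 20 genes were called lower, with a median of -0.72, and without wild-type replicate 1 or Ttpa-/- deficient replicate 2 the count was 2. Without Ttpa-/- deficient replicate 1, wild-type replicate 2 or wild-type replicate 3, only 1 was called. Without Ttpa-/- deficient replicates 3 or 4, 5 and 6 were called. With median scaling 0 of the 20 were called and the median of the list was -0.47, a fit of the 8 arrays alone left 1, and array weights gave 10. The list differed between Ttpa-/- mice on the deficient and the supplemented diet by a median of -0.60, and between supplemented Ttpa-/- and wild-type normal cortex by 0.02. Its median was -0.33 for the deficient against the normal diet in wild-type mice and -0.13 for genotype on the deficient diet. These comparisons share arrays. Genes of oligodendrocyte precursors had a median of 0.00, with 0 of 15 called.

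**Figure D1:**
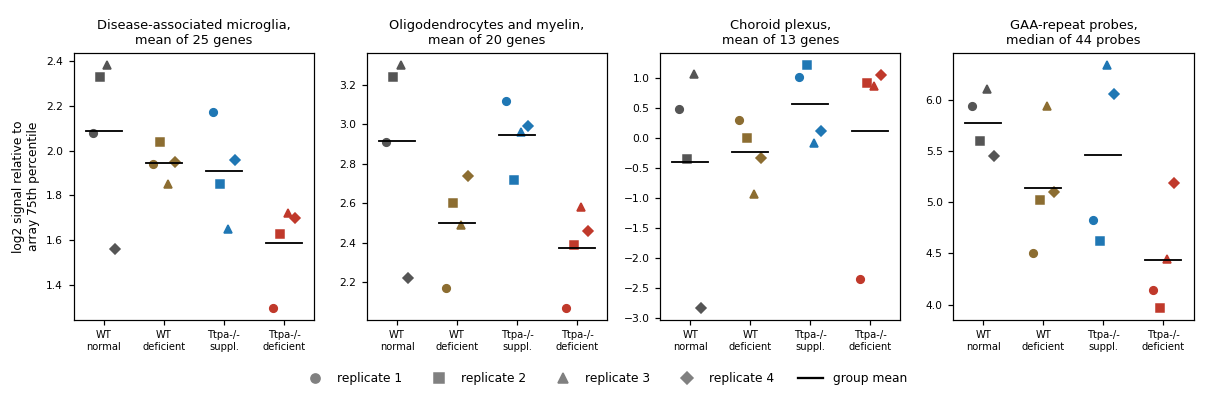
Each point is 1 array (marker shapes give the replicate number, which does not link mice across groups) and each line a group mean, on the log2 scale relative to the array's 75th percentile, for the mean of 25 genes of disease-associated microglia, 20 myelin genes and 13 choroid plexus genes and for the median of 44 probes with a GAA repeat. In the microglial and myelin panels 3 of 4 wild-type normal mice lie above the Ttpa-/- deficient mice and replicate 4 lies among them, and in the choroid plexus panel the lowest values are wild-type normal replicate 4 at -2.82 and Ttpa-/- deficient replicate 1 at -2.35.

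Other glial and immune lists had smaller median differences. All 15 astrocyte genes tested had negative differences, with a median of -0.16, and 0 were called. Their mean log2 signal was 3.80 to 4.01 in Ttpa-/- deficient and 4.07 to 4.16 in wild-type normal mice, so the ranges did not overlap. Of 26 reactive astrocyte genes, 2 were lower, namely Cxcl10 (an interferon-induced chemokine, -0.94) and Aspg (an asparaginase, -0.72). The Cxcl10 call was lost in 14 of 24 alternatives, among them median scaling, quantile normalization and leaving out any of replicates 1, 2 and 3 of either group. Cxcl10 was also the 1 lower gene of 45 interferon-stimulated genes, whose median was -0.17. Of 21 genes of MHC class I antigen presentation, H2-Q1 (-0.67) and H2-M3 (-0.59) were lower, with a median of -0.08, and both calls were lost with median scaling, with quantile normalization and without wild-type replicate 2. Of 19 complement genes, Itgax alone was called, and the median was -0.19. The interferon list had mean log2 signals of -0.80 to -0.52 in Ttpa-/- deficient mice and of -0.93 to -0.36 in wild-type mice, the lowest again in wild-type replicate 4.

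Marker genes of tissue next to the cortex had unequal signals between mice. The 13 tested choroid plexus genes, which line the ventricles and make cerebrospinal fluid, had mean log2 signals of -2.35 to 1.06 in Ttpa-/- deficient and of -2.82 to 1.08 in wild-type mice, with 0 called and Ttr well above background in both groups. The 14 tested striatal genes were higher in mean log2 signal in all Ttpa-/- deficient mice (0.59 to 0.89) than in wild-type mice (0.05 to 0.44). Of these, Drd2 (the dopamine D2 receptor, 0.94) and Ppp1r1b (DARPP-32, a phosphatase inhibitor of striatal neurons, 0.69) were called higher, and Drd2 was above background on 3 of 4 wild-type arrays, so that it was tested through the brighter group alone. Both calls were lost when either of wild-type replicates 1 or 2, or Ttpa-/- deficient replicate 3, was left out. The median of the striatal list was 0.44, and it was 0.82 for wild-type mice on the deficient against the normal diet. The 7 tested red cell genes had mean log2 signals of 0.72 to 4.70 in Ttpa-/- deficient and 0.64 to 1.61 in wild-type mice, with 0 called. The part of these signals in the results on microglia, myelin and neurons was not tested.

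Single genes of the glutamatergic synapse were higher. Of 23 glutamate receptor genes, 3 were higher and 0 lower (13% called, against 3.64% of all genes), with a median of -0.01. These were Grin1, the subunit that every NMDA receptor needs, Grin2d, another NMDA receptor subunit, and Grik5, a kainate receptor subunit. Grin1 had log2 signals of 3.83, 3.58, 3.59 and 3.03 in Ttpa-/- deficient cortex and of 2.84, 2.94, 2.87 and 2.94 in wild-type cortex (difference 0.61, standard error 0.11, adjusted p = 0.00043 by limma). The groups did not overlap, and Ttpa-/- deficient replicate 4 was close to the wild-type mice. Of 50 presynaptic genes, 3 were higher and 1 was lower (8%), with a median of 0.10 and 30 members above 0. The higher ones were Slc17a7 (the vesicular glutamate transporter VGLUT1, 0.71), Sncb (β-synuclein, 0.79) and Syn3 (synapsin III, 0.61), and the lower one was Unc13c (the vesicle priming protein Munc13-3, -0.64). A second tested Syn3 probe differed by -0.87 without a call (adjusted p = 0.274 by limma).

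Shank3, a scaffold of the excitatory postsynapse, had log2 signals of 3.00, 2.80, 2.83 and 2.29 against 2.00, 2.04, 2.08 and 2.08 (difference 0.68, standard error 0.13, adjusted p = 0.00055 by limma). It was the 1 called gene of 38 postsynaptic density genes, its second probe was also called (0.74), and the call was kept in all 24 alternatives. The cortex and the cerebellum differed in several of these genes, which were named for their calls in the cortex on the same arrays. By the interaction test, the difference was more positive in the cortex for Shank3 (0.77, adjusted p = 0.00945), Grin1 (0.86, adjusted p = 0.00198), Grik5 (0.65, adjusted p = 0.00626), Grin2d (1.13, adjusted p = 0.02), Sncb (1.07, adjusted p = 0.00496) and Slc17a7 (0.79, adjusted p = 0.0463, all by limma). In the cerebellum Grin1 differed by -0.25, Grin2d by -0.39, Grik5 by -0.06 and Slc17a7 by -0.08. Over all probes, interaction calls fell from 1067 to 144 with median scaling. Without Ttpa-/- deficient replicate 1, 0 of the glutamate receptor genes and 1 presynaptic gene were called, and in a fit of the 8 arrays alone 1 and 0. Centring each array by the base composition of the probes left 1 glutamate receptor and 2 presynaptic genes higher, with Grin1, Grik5 and Syn3 no longer called. Inhibitory receptors had 0 calls among 19 genes, GABAergic neurons 0 among 15 and immediate early genes, which neurons switch on with activity, 0 among 33. The 17 pyramidal neuron genes had Slc17a7 as the 1 call.

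A share of the clustered protocadherins was lower. These cell surface proteins give neurons individual identities and lie in a tandem cluster on chromosome 18. Of 28 tested genes, 6 were lower and 0 higher, against 1.51% and 2.13% of all genes, with a median of -0.33 and 23 members below 0. The lower genes were Pcdha9 and the β-cluster genes Pcdhb15, Pcdhb16, Pcdhb18, Pcdhb21 and Pcdhb22. Pcdha9 had log2 signals of -1.56, -1.88, -1.75 and -1.87 in Ttpa-/- deficient cortex and of -1.04, -1.07, -1.03 and -0.98 in wild-type cortex (difference -0.73, standard error 0.16, adjusted p = 0.00221 by limma). Pcdhb21 had 0.64, 0.49, 0.37 and 0.92 against 1.25, 1.11, 1.22 and 1.38 (difference -0.63, standard error 0.12, adjusted p = 0.000682 by limma). Neither gene overlapped between the groups. The Pcdhb21 call was lost without Ttpa-/- deficient replicate 3 or wild-type replicate 4. The 3 tested members of the γ cluster, Pcdhga9, Pcdhgb1 and Pcdhgc5, named after their values were seen, had positive differences of 0.28 to 0.34 without a call. The family had 4 to 7 lower genes when 1 of the 8 mice was left out, 1 with median scaling, 3 after centring by base composition and 0 after the normexp background correction, where the median was -0.23. The sequences of the genes of a cluster are alike, and probes can share signal among them.

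**Figure D2:**
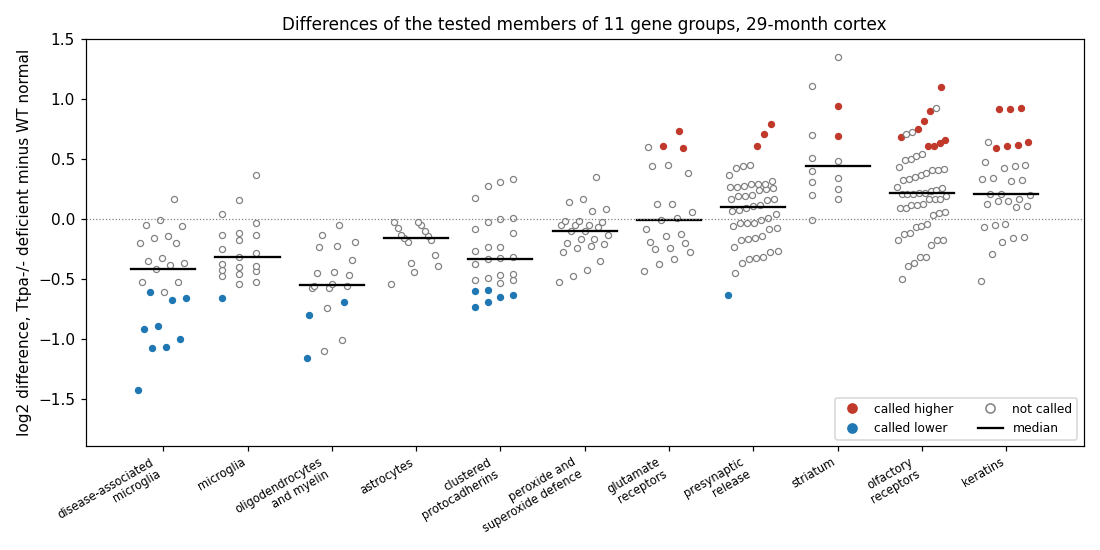
Each point is 1 tested gene of 11 gene groups and gives its log2 difference, Ttpa-/- deficient minus wild-type normal cortex, with red and blue for genes called higher and lower and a line at the median of the group. The medians run from -0.55 for myelin and -0.42 for disease-associated microglia to 0.44 for striatal genes, and 0 genes of the peroxide and superoxide defence group are called.

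The genes that handle vitamin E and peroxides had few calls and small median differences. Of 19 tested genes for binding, transport and breakdown of vitamin E, 1 was higher and 0 lower, with a median of -0.04. That gene was Pltp, the phospholipid transfer protein, which moves α-tocopherol between lipoproteins and cells. Pltp had log2 signals of 2.33, 2.19, 2.25 and 1.73 in Ttpa-/- deficient cortex and of 1.40, 1.47, 1.70 and 0.93 in wild-type cortex (difference 0.75, standard error 0.20, adjusted p = 0.00783 by limma). All 4 Ttpa-/- deficient mice lay above the wild-type mice. It was also higher than in supplemented Ttpa-/- mice (0.78) and in wild-type mice on the deficient diet (0.95, both called by limma), and supplemented Ttpa-/- and wild-type normal cortex differed by -0.03. The Pltp call was lost in a fit of the 8 arrays alone.

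Of 26 genes of peroxide and superoxide defence, which include superoxide dismutases, catalase and peroxiredoxins, 0 were called in either direction, with a median of -0.10 and 21 members below 0. Their mean log2 signal was 3.26 to 3.41 in Ttpa-/- deficient and 3.42 to 3.49 in wild-type normal mice, ranges that came close without overlap. At an adjusted p under 0.05, without the threshold on the fold change, Sepp1 (selenoprotein P, the selenium carrier) differed by -0.53, Txnrd3 by -0.48, Prdx6 (a peroxiredoxin that reduces phospholipid peroxides) by -0.43 and Sepw1 by 0.35, named after their values were seen. Of 41 glutathione enzymes, 2 were lower, Gsta2 and Gsto2, both glutathione transferases, and the median was 0.01. Gsta2 had log2 signals of -5.23, -3.67, -3.57 and -3.44 in Ttpa-/- deficient cortex, above background on 3 of 4 arrays, and of -1.93, -1.83, -2.33 and -2.42 in wild-type cortex (difference -1.85, standard error 0.38, adjusted p = 0.00116 by limma). The groups did not overlap, but Gsta2 was tested through the brighter group alone. It was not tested where both groups had to be above background. Wild-type mice on the deficient diet had a Gsta2 mean of -3.26 and differed from those on the normal diet by -1.13 without a call (adjusted p = 0.143 by limma). Gsto2 differed by -0.79 and was not called without Ttpa-/- deficient replicate 1 or with median scaling. Nrf2 targets (25 tested), ferroptosis genes (20), cholesterol synthesis and uptake (27), the phospholipase A2 family (18) and glucocorticoid-responsive genes (20) had 0 calls in either direction. Their medians were -0.07, -0.11, -0.06, 0.06 and -0.21. The limma standard errors came from the fit of all arrays, cerebellum included. A missing call therefore does not show that the cortex values of the groups were alike. Zbtb16, a glucocorticoid-responsive gene, differed by -0.64, with standard deviations of 0.12 in Ttpa-/- deficient and 0.13 in wild-type normal cortex. Its standard error was 0.37, and it was not called (adjusted p = 0.226 by limma). Iron genes had 1 call among 17, Trf.

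Protein quality and energy genes had few calls. Heat shock chaperones had 1 call among 41, Hsf4 (a heat shock transcription factor, 0.74), and genes of the unfolded protein response 1 among 30, Hyou1 (a chaperone of the endoplasmic reticulum, 0.82). The families of cytosolic ribosomal proteins (82 tested), mitochondrial ribosomal proteins (74), complex I (37), ATP synthase (17) and proteasome subunits (37) had 0 calls. Their medians lay between -0.165 and -0.101, below the -0.06 of all genes. In the same order, 65, 53, 30, 12 and 23 members were below 0, against 8744 of all 14950 genes. Complexes II to IV had 1 call among 32, Cox4i2 (0.62), a subunit of cytochrome oxidase.

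Genes of amyloid precursor processing and clearance were called in both directions, 2 higher and 3 lower of 28, with a median of -0.08. Ncstn (nicastrin, a γ-secretase subunit) had log2 signals of -2.28, -2.97, -2.89 and -3.30 in Ttpa-/- deficient cortex and of -4.14, -4.46, -3.60 and -3.66 in wild-type cortex, where only 2 of 4 arrays were above background (difference 1.11, standard error 0.25, adjusted p = 0.00224 by limma). It was thus tested through the brighter group alone, and was not tested where both groups had to be above background. After normexp it differed by 0.59. Ace, the angiotensin-converting enzyme, which can cut amyloid-β, had -0.60, 0.18, 0.18 and -0.53 against -1.16, -1.42, -1.12 and -1.13 (difference 1.02, standard error 0.24, adjusted p = 0.00363 by limma), and was called in all 24 alternatives. The lower genes were Ide (insulin-degrading enzyme), Bace2 (a relative of β-secretase) and Trem2. Ide had 0.53, 0.49, 0.50 and 0.55 against 1.63, 1.58, 0.91 and 0.60 (difference -0.66, standard error 0.21, adjusted p = 0.0265 by limma, and exact two-sided permutation p = 0.0286). The Ttpa-/- deficient mice were nearly equal, and the wild-type mice spread down to them. The Ide call was lost in 10 of 24 alternatives, among them leaving out any of Ttpa-/- deficient replicates 1, 2 and 3 or wild-type replicates 1 and 2. Wild-type mice on the deficient diet (mean 0.60) and supplemented Ttpa-/- mice (mean 0.61) had Ide signals like the deficient Ttpa-/- mice (mean 0.52). The brightest Bace2 probe differed by -0.70 and the other by -0.16. Pla2g3, a secreted phospholipase A2, differed by 0.59 (standard error 0.40, adjusted p = 0.325 by limma, exact permutation p = 0.0571) and was not called.

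Single genes of other lists were called. Trp53 (p53) was higher by 0.94 and was the 1 call of 25 p53 targets and cell cycle inhibitors. The other members mostly went the other way, since the list had a median of -0.14 with 18 members below 0. The Trp53 difference was more positive than in the cerebellum by 1.48 (adjusted p = 0.000793 by limma). Nova2, a neuronal splicing regulator, was higher by 0.84 and was the 1 call of 54 splicing factors, and fell just under the fold threshold, at 0.55, after centring by base composition. Igf1 was the 1 call of 32 neuropeptide and hormone precursors (0.78), by 1 of its 5 probes, while the other 4 differed by -0.29 to 0.02. Dbp, a clock output transcription factor, was the 1 call of 23 clock genes (-0.73), with its second probe also lower (-0.75), but the call was lost when any of the 8 mice was left out. Other clock genes, named after their values were seen, had an adjusted p under 0.05 by limma but fell short of the fold threshold. Rora (-0.53), Cry1 (-0.53), Nr1d2 (-0.49), Csnk1d (-0.31) and Cry2 (-0.30) were lower in this way, and Arntl (0.41) was higher. Atp2b2, a plasma membrane calcium pump, was the 1 call of 16 calcium pumps and exchangers (-0.62), and its other probe differed by 0.05. Among 11 markers of pericytes and vascular muscle, with a median of -0.01, Kcnj8 (a pericyte potassium channel subunit, -0.83) was lower. It was above background on 3 of 4 Ttpa-/- deficient arrays, so that it was tested through the brighter group alone. Among 14 markers of meninges and fibroblasts, with a median of -0.045, Lum (lumican, -0.73) was lower and Nnat (neuronatin, 0.84) was higher. Of 11 hippocampal markers, Lct (-1.33) and Prox1 (-0.61) were lower, with a list median of -0.07 and 4 members above 0. The Kcnj8 and Prox1 calls were each kept in 16 of 24 alternatives. Markers of endothelium (17 tested), thalamus and hypothalamus (14), ependyma (12), cerebellar granule cells (10) and olfactory bulb (8) had 0 calls, and those of Purkinje cells 1 of 12, Car8.

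Of 267 solute carriers, 6 were higher and 2 lower (3%), and of 334 zinc finger genes 8 were higher and 3 lower (3.29%), near the 3.64% of all genes. Their medians were -0.05 and -0.12. Slc4a2, an anion exchanger, had log2 signals of 1.71, 1.79, 1.76 and 1.38 in Ttpa-/- deficient cortex and of 0.94, 0.90, 0.99 and 0.86 in wild-type cortex (difference 0.74, standard error 0.11, adjusted p = 5.69e-05 by limma), and kept its call in all 24 alternatives. Among the zinc finger genes was Zfp646 (1.02). Collagens had 2 higher of 28, Col9a3 (0.88) and Col6a2 (0.76). Col9a3 was above background on 3 of 4 wild-type arrays, so that it was tested through the brighter group alone. Col9a3 was lost without wild-type replicate 4 or without any of Ttpa-/- deficient replicates 2, 3 and 4. Col6a2 was lost without Ttpa-/- deficient replicate 1 and after centring by base composition. Tubulins and microtubule-associated proteins had 1 lower of 23, Tuba3a (-0.74), by both of its probes. Clustered histones (36), cytochrome P450 enzymes (40), vacuolar ATPase subunits (21) and voltage-gated sodium and calcium channels (35) had 0 calls.

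The largest rises of named genes were moderate. With groups that did not overlap and all 8 arrays above background, the 12 largest rises included 1.25 for Gal3st3 (a galactose sulfotransferase), 1.21 for Bard1 (the partner of Brca1), 1.15 for Mpp2 (a synaptic scaffold), Fmnl1 (a formin) and Cd300lg (an endothelial receptor), 1.13 for Skint9, 1.10 for Olfr1251, 1.09 for Lin28a (an RNA-binding protein), 1.08 for Rbp3 (a retinoid carrier of the eye), 1.06 for Wfdc13 and 1.04 for Tmem90a. Gal3st3 had log2 signals of -1.47, -1.29, -1.26 and -1.37 against -2.34, -2.62, -2.46 and -2.96 (standard error 0.23, adjusted p = 0.000498 by limma). Of the 12 genes, 10 stayed called in all 24 alternatives. The exceptions were Fmnl1, lost in the 8 arrays alone and by the methods' t-test with adjustment, and Wfdc13, lost with median scaling, by that t-test and without Ttpa-/- deficient replicate 1. The other 2 Bard1 probes were not tested. Of the 255 called genes with more than 1 tested probe, 27 had every tested probe called the same way, 214 had 1 called probe and 4 had probes called in opposite directions.

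Several of these genes are not usually ascribed to the brain, and families of that kind were therefore counted. Of 1085 olfactory receptor genes on the array, 61 passed the filter on signal, and 9 of these were higher and 0 lower, against 2.13% and 1.51% of all genes. Of 102 keratins and keratin-associated proteins, 33 passed, and 7 were higher and 0 lower. Of 21 vomeronasal receptors that passed, 0 were higher and 1, Vmn2r35 (-1.16), was lower. Genes that passed only through the group where they were bright had to differ, so the counts describe the tested members alone. With probes above background in both groups, 9 of 42 olfactory receptors and 7 of 29 keratins were higher. Without a filter the direction of the olfactory receptors turned, with 13 higher and 40 lower of 1085 and a median of -0.37, and keratins had 9 higher and 1 lower of 102 with a median of -0.15. Krt16, an epithelial keratin, had 0.54, 0.34, 0.22 and -0.23 in Ttpa-/- deficient cortex and -0.71, -0.70, -1.10 and -0.29 in wild-type cortex (difference 0.92, adjusted p = 0.0016 by limma). The keratin probes had a median of 53.3% G and C, against 41.7% for all genes, and centring by base composition left 3 of 33 higher with a median of 0.06. For the olfactory receptors, at 45% G and C, it left 7. After normexp, 3 olfactory receptors and 3 keratins were called higher.

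**Figure D3:**
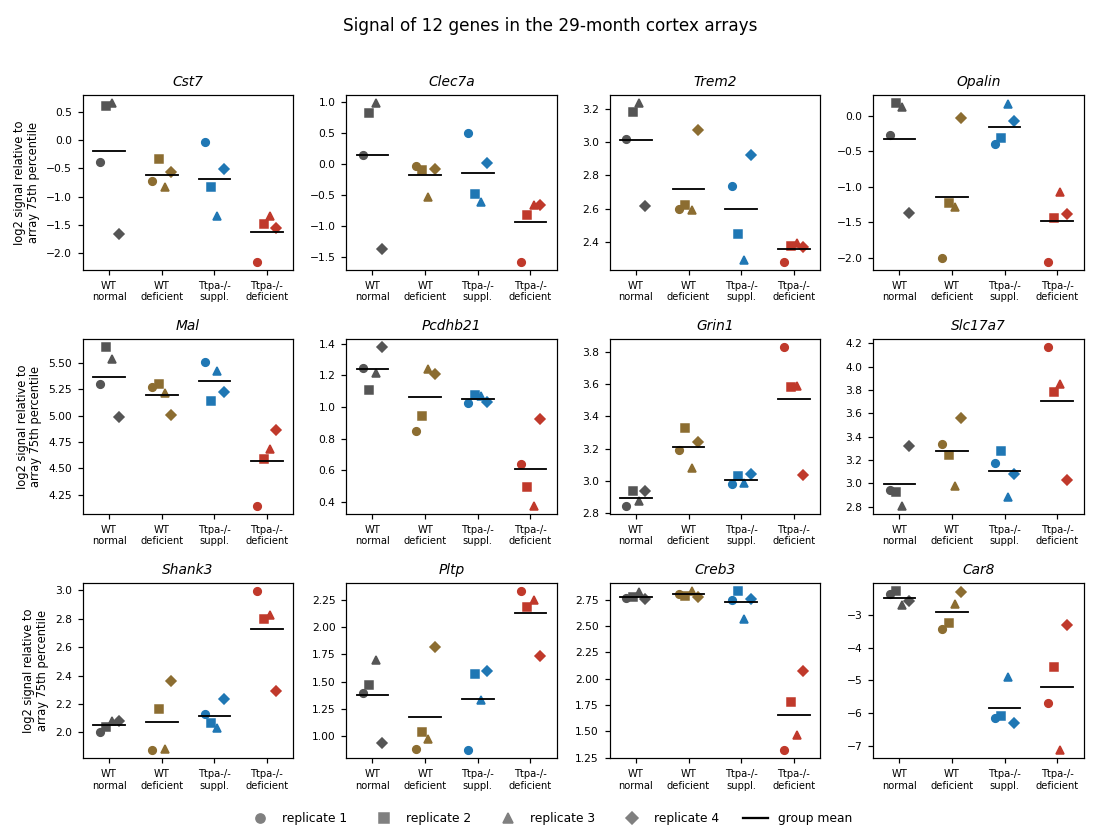
Each panel is 1 gene, with the log2 signal relative to the array's 75th percentile for 4 arrays per group of 29-month cortex and a line at the group mean. Trem2, Mal, Pcdhb21 and Creb3 lie lower and Grin1, Shank3 and Pltp higher in Ttpa-/- deficient than in wild-type normal mice without overlap, Cst7, Clec7a and Opalin are as low in wild-type normal replicate 4 as in the Ttpa-/- deficient mice, and Car8 is low in both Ttpa-/- groups.

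A number of large falls lay close to one another on chromosome 4. Between 41 and 44 Mb, a window chosen after the values were seen, 16 of 84 tested probes were lower (19%) and 1 was higher, with called falls from -4.58 to -1.03. These were the probes of Ccl27a (3), Gm13308 (2), Gm13298 (3), Gm1987, Ccl19, 4933409K07Rik, Cd72 (2) and Creb3, and 2 probes without a gene symbol. Ccl27a and Ccl19 are chemokines, Cd72 is a surface protein of B cells and Creb3 is a transcription factor of the secretory pathway. Ccl27a had log2 signals of 2.64, 3.07, 2.47 and 3.73 in Ttpa-/- deficient cortex and of 4.70, 4.89, 4.71 and 4.61 in wild-type cortex (difference -1.75, standard error 0.22, adjusted p = 8.66e-06 by limma). Creb3 had 1.32, 1.78, 1.46 and 2.08 against 2.77, 2.77, 2.82 and 2.76 (difference -1.12, standard error 0.13, adjusted p = 2.12e-06 by limma). Gm1987 had -2.25, 1.41, -1.83 and 2.01 against 3.32, 3.67, 3.33 and 3.73. In this gene the Ttpa-/- deficient mice formed a dim pair, replicates 1 and 3, and a brighter pair, and its call was lost in a fit of the 8 arrays alone.

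Creb3 and Ccl27a were low in the deficient Ttpa-/- mice and not in the supplemented ones. Creb3 averaged 2.73 in supplemented Ttpa-/- mice and 2.80 in wild-type mice on the deficient diet. The Ccl27a means of these groups were 4.65 and 4.41. Both were called lower in the deficient Ttpa-/- mice against each of these groups and in the cerebellum (Creb3 by -1.08 and Ccl27a by -1.52). Of the 3 Ccl19 probes 1 was called, and the others differed by -0.56 and 0.10. The genes of this stretch share sequence, which is shown by a Ccl27a probe (chr4:41720610-41720669, minus strand, mm9, difference -1.66) and a Gm13308 probe (chr4:41812765-41812824, plus strand, mm9, difference -1.42). They have a run of 50 bases in common, given in capitals, and signal can be shared between the genes.
Ccl27a: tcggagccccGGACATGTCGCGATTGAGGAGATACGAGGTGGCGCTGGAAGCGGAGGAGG
Gm13308: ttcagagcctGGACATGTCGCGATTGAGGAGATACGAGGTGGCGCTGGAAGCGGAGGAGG

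Another pair of genes on chromosome 4 was low in both Ttpa-/- groups. Car8, a carbonic anhydrase-related protein that binds the IP3 receptor, had log2 signals of -5.71, -4.61, -7.13 and -3.32 in Ttpa-/- deficient cortex, above background on 2 of 4 arrays, and of -2.37, -2.27, -2.69 and -2.58 in wild-type cortex. Car8 was thus tested through the brighter group alone. Supplemented Ttpa-/- mice averaged -5.86 and wild-type mice on the deficient diet -2.91. The Tle1 probe, for a transcriptional corepressor, had 1.94, 1.38, 2.42 and 2.21 against 3.09, 3.11, 3.05 and 3.17 (difference -1.12, standard error 0.29, adjusted p = 0.00724 by limma), with 1.69 in supplemented Ttpa-/- mice and 3.00 in wild-type mice on the deficient diet. Both genes were called lower in supplemented Ttpa-/- against wild-type normal cortex. The other 2 Tle1 probes differed by 0.34 and -0.32 and were not called. Ttpa lies on chromosome 4 too, between the Car8 probe (from 8070545) and the Ccl27a probes, at 19957856 of mm9.

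Away from chromosome 4, among named genes above background on all 8 arrays and without overlap, the largest falls included Dcaf12l2 (-1.57), whose second probe was called higher (0.59), Lct (lactase, -1.33), Thbs4 (thrombospondin 4, a matrix protein that promotes synapses, -1.24) and A4galt (a glycosphingolipid galactosyltransferase, -1.03). Thbs4 had log2 signals of -1.27, -0.15, 0.08 and 0.23 against 0.85, 1.37, 1.04 and 0.59 (standard error 0.38, adjusted p = 0.0206 by limma). Its call was lost without Ttpa-/- deficient replicate 1 or wild-type replicate 2. Dcaf12l2 was not called when any mouse other than Ttpa-/- deficient replicate 4 or wild-type replicate 4 was left out.

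Of the 12 largest falls, 4 came from probes that are mostly a repeat. The probes labelled Gcm1 (a placental transcription factor, -1.69), Rhox8 (a homeobox gene of the testis, -1.64), Dcc (the netrin receptor, -1.43) and Pigr (the receptor that carries IgA across epithelia, -1.17) contain 6 or more GAA units in a row. The repeat was looked for after the values were seen. Of these, 3 probes and 1 probe without a gene symbol are printed with the repeat in capitals, since under different names they carry nearly the same sequence.
Gcm1: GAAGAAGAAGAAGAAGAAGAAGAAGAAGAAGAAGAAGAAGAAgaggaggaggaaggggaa
Rhox8: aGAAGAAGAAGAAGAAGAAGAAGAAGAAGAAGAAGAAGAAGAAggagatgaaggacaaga
Pigr: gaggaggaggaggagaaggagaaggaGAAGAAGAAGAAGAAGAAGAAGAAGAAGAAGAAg
A_55_P2028847: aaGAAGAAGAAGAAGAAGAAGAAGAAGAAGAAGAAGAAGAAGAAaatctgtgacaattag

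The Gcm1 probe lies at chr7:123731567-123731626, the Rhox8 probe at chrX:35231462-35231521, the Pigr probe at chr13:108165151-108165210 and the fourth at chr9:32481285-32481344, all on the minus strand of mm9. The RefSeq table places Gcm1 on chromosome 9, Pigr on chromosome 1 and Dcc on chromosome 18, while the files place the repeat probes of these genes on chromosomes 7, 13 and 7. Such a mismatch was found for 64 of 17626 tested probes with a symbol (0.363%). The Gcm1 repeat probe had log2 signals of 3.88, 3.94, 4.37 and 4.92 in Ttpa-/- deficient cortex and of 6.00, 5.86, 6.42 and 5.60 in wild-type cortex. The probes of Gcm1 and Pigr at the genes' own chromosomes were not above background on any of the 8 arrays. A second Rhox8 probe, without the repeat, was called higher (0.88).

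On the whole array, 44 probes carried the repeat, all were tested and all had negative differences, from -1.69 to -0.39 with a median of -1.21, and 33 were called lower and 0 higher. They lay on 15 chromosomes, 37 had no gene symbol, and they made up 7.11% of all lower calls. Their median log2 signal was 4.14, 3.97, 4.45 and 5.19 in Ttpa-/- deficient mice and 5.94, 5.60, 6.11 and 5.45 in wild-type normal mice, with no overlap. Among wild-type mice on the deficient diet it was 4.50 to 5.94, and among supplemented Ttpa-/- mice 4.62 to 6.34, so both of these groups spanned the gap. In the cerebellum the same comparison had a median of -0.07. With single mice left out, 11 to 40 of the 44 were called lower, the fewest without Ttpa-/- deficient replicate 2.

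The calls were also counted by class of probe. Of 4630 tested probes for intergenic long noncoding RNA (lincRNA), 350 were higher (7.56%) and 57 lower (1.23%), and 63.8% had positive differences, with a median of 0.12. Named genes had 373 higher (2.06%) and 261 lower (1.44%) of 18084 probes and a median of -0.05. RIKEN clone and Gm genes resembled named genes, with 40 higher (2.19%) and 32 lower (1.75%) of 1824. The other 4375 probes without a gene symbol had 146 higher (3.34%) and 114 lower (2.61%), and 24.6% of these lower calls were GAA-repeat probes. The classes were not compared by a test. With probes above background in both groups 264 lincRNA probes were higher, and without Ttpa-/- deficient replicate 1 there were 197.

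The lincRNA probes were dim, with a median log2 signal of -2.20 against 0.47 for named genes, and had a median of 45% G and C against 41.7%. The 350 higher probes came from 306 of 1993 tested loci. Of 390 loci with probes tested on both strands, 16 had both strands called and 123 only 1. The 3 largest rises with groups apart are printed with G and C in capitals, because the content ran from moderate to very high among them. The first is a probe of a locus on chromosome 19 (chr19:55715434-55715493, minus strand), the second of one on chromosome 6 (chr6:83406382-83406441, plus strand) and the third of one on chromosome 17 (chr17:21873028-21873087, minus strand), all mm9.
lincRNA chromosome 19: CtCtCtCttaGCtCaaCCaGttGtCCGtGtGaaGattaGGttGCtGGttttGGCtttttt
lincRNA chromosome 6: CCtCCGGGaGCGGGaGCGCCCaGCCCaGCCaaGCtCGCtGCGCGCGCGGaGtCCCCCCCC
lincRNA chromosome 17: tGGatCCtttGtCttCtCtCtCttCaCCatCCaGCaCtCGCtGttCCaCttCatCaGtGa

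These hold 26, 49 and 29 G and C bases of 60. The probe on chromosome 6 had log2 signals of 4.64, 3.64, 4.05 and 3.04 in Ttpa-/- deficient cortex and of 2.48, 2.34, 2.13 and 2.85 in wild-type cortex (difference 1.39, standard error 0.22, adjusted p = 9.78e-05 by limma). The probe on chromosome 19 had -0.72, -0.85, -1.30 and -1.57 against -2.87, -2.52, -3.73 and -1.97 (difference 1.66, adjusted p = 0.0121 by limma). At both probes replicate 1 was the highest and replicate 4 the lowest of the Ttpa-/- deficient mice.

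Base composition went with the difference among named genes and among lincRNA probes. Of probes with 37 to 55 G and C bases, 16.1% were higher, against 1.75% of those with 9 to 20. Within the range of 25 to 27, lincRNA probes had a median of 0.11 and named genes of -0.03. The gap between probes with over 30 and up to 24 such bases, measured on each array against the mean of the cortex arrays, was 0.35, 0.18, 0.23 and -0.04 in the Ttpa-/- deficient mice and -0.12 to -0.06 in the wild-type normal mice. It was -0.08 to 0.08 on the other 12 cortex arrays, so that 3 Ttpa-/- deficient arrays stood apart and replicate 4 did not. After centring by base composition within each array, an alternative chosen after the data were seen, 226 lincRNA probes were higher (4.88%) with a median of 0.05, 211 of them among the 350. Of all probes, 670 were then higher and 478 lower, of which 602 and 368 were shared with the counts above.

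**Figure D4:**
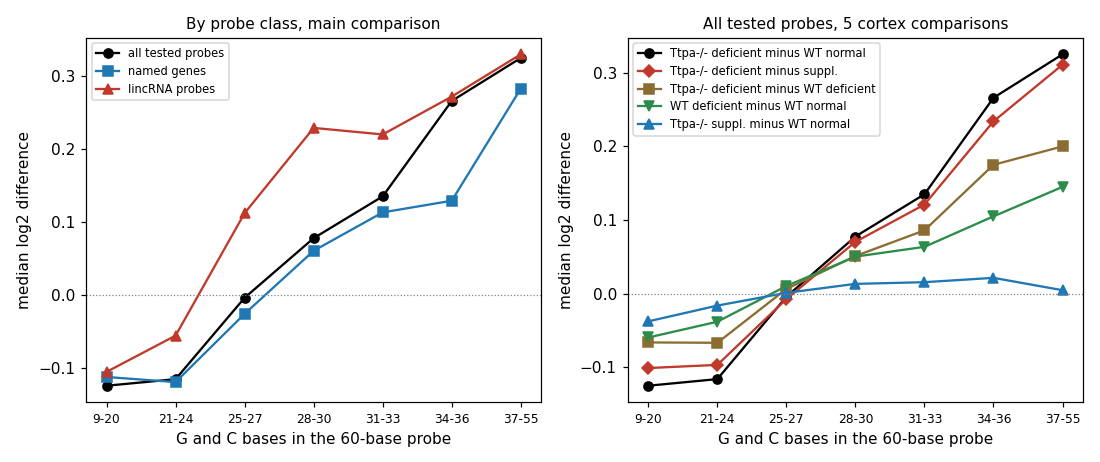
Median log2 difference of tested probes (y axis) in 7 ranges of G and C bases per 60-base probe (x axis), for 3 probe classes in the main comparison at left and for 5 cortex comparisons, which share arrays, at right. At left lincRNA probes lie above named genes in every range and both rise with G and C content, and at right the line of supplemented Ttpa-/- against wild-type normal cortex stays between -0.04 and 0.02.

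Set beside the other cortex comparisons, which share arrays with this one, genotype on the deficient diet gave 891 called probes of 29061 (3.07%) and diet within Ttpa-/- mice 961 of 29077 (3.31%). The deficient diet in wild-type mice gave 63 of 28254 (0.223%) and supplemented Ttpa-/- against wild-type normal mice 26 of 28268 (0.092%). At an unadjusted p under 0.05, with the same fold change, the last pair had 314 higher and 549 lower and 221 higher and 130 lower probes. In the cerebellum, the comparison of deficient Ttpa-/- with wild-type normal mice called 1366 of 30604 probes (4.46%). Of the 909 higher probes in the cortex, 126 were also higher in the cerebellum and 158 differed between the regions by the interaction test, and of the 464 lower probes 63 and 71. Over all probes tested, the interaction was called for 1067 of 31560 (3.38%), and for 144 with median scaling.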

How the data were processed

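Total RNA of mouse cortex was measured on 1-colour Agilent arrays of 60-base probes. The authors scanned the arrays and deposited Feature Extraction files, with processed signal intensity per spot (version 10.7.3.1 per the file headers, 10.1.1.1 per the submitters' processing notes), and a table of log2 values. The deposited log2 values differed from the scaled log2 intensity by a median of 0.000915. Probe coordinates were those of the files (mm9). All 40 arrays (10 groups of 4 on 5 slides) were used in one fit. The standard errors therefore also held spread from the cerebellum arrays. A gene could miss a call despite close values within each cortex group.

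Spots flagged as outliers were left out, spots of a probe were averaged, and the log2 processed signal was set relative to the 75th percentile of the gene probes of each array, 55589 probes in all. A probe was tested when well above background on 4 of 4 arrays of either group. Group means were fitted with limma 3.58.1 (R 4.3.3), with Benjamini-Hochberg adjustment over all tested probes, and calls required more than 1.5-fold at an adjusted p under 0.05. Differences of gene groups are counts and medians, with no set test. Single values were also compared by an exact two-sided permutation test. The scripts were tested on simulated data. No spot was saturated. The number of arrays limits the precision.

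Gene symbols were those of the array, and 26254 transcript accessions matched the RefSeq gene table, 2835 of them under another symbol. The brightest probe over all arrays stood for a gene. The text names the 12 largest rises and falls among named genes with all 8 arrays above background and no overlap, up to 4 called members of each list in each direction, the 3 largest changes each way among RIKEN or Gm genes and among probes without a symbol, and Ttpa, Ide, Pla2g3 and Car8. A few genes that this rule or the lists hold are not reported here. The comparison, the gene lists and this rule were chosen with earlier results of these data known.

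The results were recomputed with quantile normalization, scaling by the median, normexp background correction, the deposited log2 values, other filters on dim probes, array weights, fits of 8 or 20 arrays, other thresholds, the t-test of the methods, averaged probes, a replicate block and leaving out each array. Centring by the G and C content of the probes was added after the data were seen. The slide as a block could not be fitted, since each group lay on a single slide.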

Additional observations from a re-analysis of the deposited data

Results flagged for a closer look

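Single mice stood apart from the other 3 of their group by Dixon's test in 16 of 216 groups tested (4 mice each, all named genes and probes), where chance gives about 1 in 20. The values are log2 signals relative to the 75th percentile. In Ttpa-/- deficient cortex, replicate 1 stood apart for Gsta2 (-5.23 against -3.67 to -3.44), Kcnj8 (-4.38), H2-Q1 (-3.43), Col9a3 (-3.59), Col6a2 (-0.164) and Zfp882 (-2.15). Replicate 4 stood apart for Grin2d (-3.67 against -2.56 to -2.46), Ppp1r1b (3.96) and Zfp449 (-4.11), replicate 2 for Slc27a5 (-3.89) and replicate 3 for Vmn2r35 (-2.87). In wild-type normal cortex, replicate 2 stood apart for Zfp449 (-1.66 against -3.58 to -3.34) and Ace (-1.42), replicate 3 for Slc1a7 (-4.43), and replicate 4 for Pla2g3 (-0.803 against -1.61 to -1.57) and Slc25a23 (0.766). Without the Ttpa-/- deficient mouse that stood apart, Kcnj8, H2-Q1, Col6a2 and Slc27a5 were no longer called. Without the wild-type mouse that stood apart, Zfp449 and Slc1a7 were no longer called.

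By the interaction test in limma, 25 named genes and probes had a different Ttpa-/- deficient minus wild-type normal difference in cortex and cerebellum. Over all tested probes the interaction was called for 1067 of 31560 (3.38%). The named genes were mostly chosen by their calls in the cortex, on arrays that also enter the interaction, which favours large values. Interaction calls over all probes fell with median scaling, and which of the 25 remained is not reported here. Values are the cortex difference minus the cerebellum difference, on the log2 scale. Neuronal genes with a larger value in the cortex were Shank3 (0.767, adjusted p = 0.00945), Grin1 (0.858), Grin2d (1.13), Grik5 (0.65), Slc17a7 (0.79), Sncb (1.068), Mpp2 (1.449), Drd2 (1.513) and Nnat (1.103). Grin1 differed by 0.61 in the cortex and by -0.25 in the cerebellum. The interaction was also positive for Trp53 (1.484, adjusted p = 0.000793), Hsf4 (1.687, with -0.95 in the cerebellum), Ncstn (1.709), Krt1 (1.526), Fmnl1 (1.413), Tmem90a (1.247), Slc25a23 (1.176), Zfp646 (1.164), Gm1332 (1.045), Zfp385a (0.981), Cd300lg (0.956), Lin28a (0.808) and Slc4a2 (0.611). It was 1.006 for the lincRNA probe on chromosome 6 with 49 G and C bases (adjusted p = 0.0436). It was negative for A4galt (-1.421, adjusted p = 0.00161) and Tuba3a (-0.999, adjusted p = 0.0165).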

How the results depend on the processing

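The comparison had 4 mice per group, and genotype, diet and slide differed together in it. Differences also went with the base composition of the probes, and the counts of called probes changed with the processing. None of the 108 named results changed sign in any of the 24 alternatives. Almost all were named because they were called on the same arrays, which made a change of sign unlikely from the start. The stability of direction in single genes can therefore not be judged from this. Of the 108 results, 31 were called in every alternative. Over all results and alternatives 2249 kept their side of the thresholds, 341 fell below them and 2 rose above them.

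Against 909 higher, 464 lower, 350 higher lincRNA and 1067 interaction probes, median scaling gave 221 lower and 144 by interaction. Normexp gave 517 higher, 210 lower and 178 higher lincRNA probes, and array weights 870 lower. Without a filter on dim probes there were 1116 lower and 5308 by interaction. An adjusted p without a fold change gave 2730 higher, 2764 lower and 751 lincRNA probes, and a fold change without a test 919 lower. The methods' t-test with Benjamini-Hochberg adjustment gave 507, 250 and 199 (1027 higher and 621 lower without adjustment), and centring by base composition, added after the data were seen, 226 lincRNA probes. The cause was not tested. The share of calls that were higher was 66.2%, 82.7% with median scaling, which moved the median of all probes from -0.02 to 0.05, 46.9% without the filter and 49.7% without the fold change.

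Leaving out 1 mouse gave 558 to 1283 higher, 304 to 678 lower and 197 to 456 lincRNA probes, lowest without Ttpa-/- deficient replicate 1 and highest without replicate 4, and 704 (without Ttpa-/- deficient replicate 3) to 1782 (without replicate 4) by interaction. The replicate block gave 934 and 490 calls. The replicate numbers did not pair the mice, with correlations of -0.181, 0.154, 0.321 and -0.299 between same-numbered mice, and the block left all other counts within 1.5 times. The slide block and the interaction under normexp were not run.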
